A study of Mus musculus with 6 samples.

Results

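Linker histones H1 are small basic proteins that bind where DNA enters and leaves the nucleosome and take part in folding chromatin into more compact forms. Mammals carry several somatic variants. H1f1 to H1f5 lie in a histone gene cluster and are made mainly while DNA is replicated, from mRNAs that classically end in a stem-loop in place of a poly(A) tail, whereas H1f0 lies elsewhere, is polyadenylated and accumulates in cells that have left the cell cycle, such as most hepatocytes of the adult liver. Some transcripts of the clustered H1 genes are polyadenylated as well, and H1f2 is one of those known for this in non-dividing cells.

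The 6 genes H1f0, H1f1, H1f2, H1f3, H1f4 and H1f5 (older names H1f0 and Hist1h1a to Hist1h1e) were examined, taking every probe on the array whose RefSeq accession belongs to 1 of them. All 6 were found, each with 1 probe and 1 spot, among 22911 genes with a symbol. The family was chosen by the rise of H1f2 in the same diet comparison. The difference of H1f2 between the diets is therefore a description and is given without a test, and only the other 5 members are read against the fit over all probes.

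The data are livers of male mice of a strain not given in the sources used here, with 3 mice and 3 arrays per diet. By the methods, mice 12 weeks old were fed 1 of 2 diets for 4 weeks, and the livers were taken at the end of that time. Control mice ate 100% granulated regular food, and soy mice ate 75% regular food with 25% soy bean powder. RNA of the right hepatic lobe was labelled with Cy3 by a kit that primes from poly(A) tails and hybridized to 1-colour Agilent mouse arrays. The tissue was not separated by cell type, so fewer cells of a type and less RNA per cell cannot be told apart. No depth exists for an array, and the number of arrays limits the precision of every value. Control arrays 1, 2 and 3 had 37010, 36366 and 38163 spots well above background, and soy arrays 1, 2 and 3 had fewer, with 31308, 31988 and 32498. Control 1, control 2 and soy 1 were on slide 1, soy 2 was alone on slide 2, and control 3 and soy 3 were on slide 3. All levels below are normalized signals on the log2 scale, and all changes are soy minus control on that scale.

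The upstream sequences of 3 members are shown because H1f2 and H1f4 are the members whose soy and control values lay farthest apart and H1f0 is the member of another chromosome with the smallest change. Each is the 250 bases before the start of the gene in RefSeq (build GRCm38.p6), 5′ to 3′ on the strand of the gene, with capitals at matches to the motifs searched on both strands: the H1 box known from linker histone promoters (AAACACA), the CCAAT box (those letters alone), the TATA box (spelled TATAAA) and the GC box (spelled GGGCGG). No match overlapped another motif in these windows. H1f2 is on the plus strand at chr13:23738557-23738806, H1f4 on the minus strand at chr13:23622559-23622808 and H1f0 on the plus strand at chr15:79027962-79028211.
H1f2: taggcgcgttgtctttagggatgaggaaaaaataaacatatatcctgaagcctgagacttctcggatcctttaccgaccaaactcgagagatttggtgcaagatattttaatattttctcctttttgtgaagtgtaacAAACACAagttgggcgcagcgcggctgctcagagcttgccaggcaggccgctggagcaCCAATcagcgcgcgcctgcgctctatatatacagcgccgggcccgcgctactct
H1f4: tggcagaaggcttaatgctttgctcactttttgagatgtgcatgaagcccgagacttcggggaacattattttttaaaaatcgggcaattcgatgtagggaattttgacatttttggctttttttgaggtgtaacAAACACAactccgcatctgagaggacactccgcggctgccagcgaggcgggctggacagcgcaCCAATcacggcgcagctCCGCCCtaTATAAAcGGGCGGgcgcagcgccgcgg
H1f0: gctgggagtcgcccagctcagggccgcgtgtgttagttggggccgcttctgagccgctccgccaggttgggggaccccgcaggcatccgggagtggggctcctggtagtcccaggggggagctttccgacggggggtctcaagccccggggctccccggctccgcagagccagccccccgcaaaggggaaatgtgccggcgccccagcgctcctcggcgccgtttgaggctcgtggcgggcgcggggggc

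The H1 box was found in 4 of the 6 H1 windows (H1f2, H1f3, H1f4 and H1f5) and in 6.25% of all 32851 windows of this length. In H1f2 it began 112 bases before the start and in H1f4 115 bases before it. The CCAAT box was found in 5 of the 6 windows, all but that of H1f0, and in 33.8% of all windows, and the match nearest the start began 54 bases before it in H1f2 and 52 in H1f4. The TATA box was present in H1f1, H1f3, H1f4 and H1f5 (12.4% of all windows) and the GC box in H1f1, H1f4 and H1f5 (32.7% of all windows). The H1f0 window held none of these letters and had 74.4% G and C, against 50.4% in H1f2 and 52.4% in H1f4. A match is a description of the letters only.

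H1f2 (NM_015786, older name Hist1h1c), 1 of the broadly expressed somatic variants, was brighter on every soy array than on every control array. Its level was 8.77, 8.33 and 8.82 on control arrays 1, 2 and 3 and 9.48, 9.79 and 9.65 on soy arrays 1, 2 and 3. The groups were apart by 0.66, the distance from the lowest soy to the highest control array, and control 2 was the lowest of all. The group means were 8.64 ± 0.27 in control and 9.64 ± 0.16 in soy (SD, n = 3 arrays each), a difference of 1.00 (SE 0.16), which is a 2.00-fold higher signal. Before background correction and normalization the median intensity of the spot was 510, 323 and 434 in the control livers against 703, 779 and 810 in the soy livers, in the same order, over a local background of 53 to 57. The spot was well above background on all 6 arrays and was marked as an outlier on none. Ranked by change over all 22911 genes, each by its brightest probe, H1f2 was number 177. The rank is a description only, since the family was chosen by this rise. Within slide 1 the difference was 0.93 and within slide 3 it was 0.83.

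H1f4 (NM_015787, older name Hist1h1e), the other major somatic variant of many tissues, was also higher on every soy array, by a smaller amount. Its level was 10.37, 10.60 and 10.36 on control arrays 1, 2 and 3 and 10.86, 11.19 and 11.09 on soy arrays 1, 2 and 3. The groups did not overlap, with 0.26 between the lowest soy and the highest control array. The means were 10.44 ± 0.13 and 11.04 ± 0.17 (SD, n = 3), a change of 0.60 (SE 0.13) or 1.52-fold, and the adjusted p of limma was 0.117, so H1f4 did not pass. A probe passed at a Benjamini-Hochberg adjusted p under 0.05 over all 56605 probes with a fold change above 1.5 or under 0.66. Within slide 1 the change was 0.37 and within slide 3 it was 0.72. The local background of this spot was marked as an outlier on 1 array, and with such spots left out the change was 0.56.

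**Figure D1:**
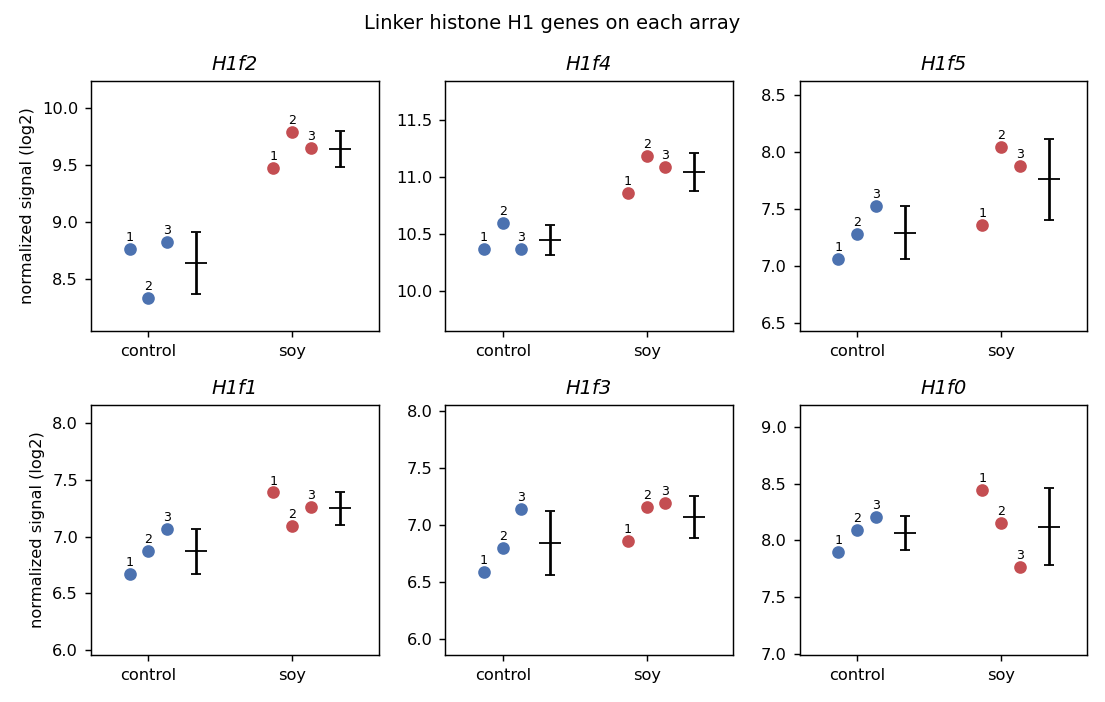
Normalized signal (log2) of the 6 H1 genes on each array, with points numbered by array and bars for the mean and SD of the 3 arrays of a group. Each panel has its own level and spans the same range of log2 units, and the soy points lie above all control points for H1f2, H1f4 and H1f1 and overlap them for the other genes.

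H1f5 (NM_020034, older name Hist1h1b), a variant linked to dividing cells, overlapped between the diets. It was 7.07, 7.28 and 7.53 in the control livers against 7.36, 8.04 and 7.88 in the soy livers. Soy 1 lay among the controls, and soy 2 and soy 3 above all of them. The change was 0.47 (SE 0.20) with a limma adjusted p of 0.425, and it was 0.19 within slide 1 and 0.35 within slide 3.

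H1f1 (NM_030609, older name Hist1h1a), a variant with a narrow range of tissues, was 6.67, 6.87 and 7.07 in the control livers against 7.39, 7.10 and 7.26 in the soy livers. All soy arrays lay above all control arrays, but the gap was 0.03 only. The spot was well above background on every array but dim. Its median intensity was 116, 119 and 129 in the control livers, over a local background of 58 to 62, and 191.5, 142 and 165.5 in the soy livers. The change was 0.38 (SE 0.14) with a limma adjusted p of 0.342. Within slide 1 it was 0.62 and within slide 3 it was 0.20.

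H1f3 (NM_145713, older name Hist1h1d) was close to background. It was 6.59, 6.80 and 7.14 in the control livers against 6.86, 7.16 and 7.20 in the soy livers, and it was well above background on 2 of 3 arrays in each group. The groups overlapped, and the change was 0.23 (SE 0.17, limma adjusted p = 0.653), 0.17 within slide 1 and 0.05 within slide 3. With 1 array left out it ranged from 0.10 without control 1 to 0.38 without control 3.

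H1f0 (NM_008197), the replacement variant of non-dividing cells, showed no common direction. It was 7.90, 8.09 and 8.20 in the control livers against 8.44, 8.15 and 7.77 in the soy livers. Soy 1 was the highest and soy 3 the lowest of the 6. The change was 0.06 (SE 0.18, limma adjusted p = 0.932), and it was 0.45 within slide 1 and -0.44 within slide 3.

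None of the 5 members besides H1f2 passed in limma, where 0.35% of all probes passed (198 of 56605) and 0.532% of all genes had a probe that passed (122 of 22911). At an unadjusted p under 0.05, 3 of the 5 were higher in soy (H1f1, H1f4 and H1f5), against 5.34% of all probes. The groups were apart with soy higher for H1f1 and H1f4, against 7.75% of all probes. All 5 had a change above 0, as had 48.8% of all genes by their brightest probe, and the median of the 5 was the 0.38 of H1f1, beside -0.01 over all genes. These counts describe 5 genes of 1 family on the same 6 arrays. The coding regions of H1 genes resemble each other, and how far a probe took up RNA of another member was not tested.

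**Figure D2:**
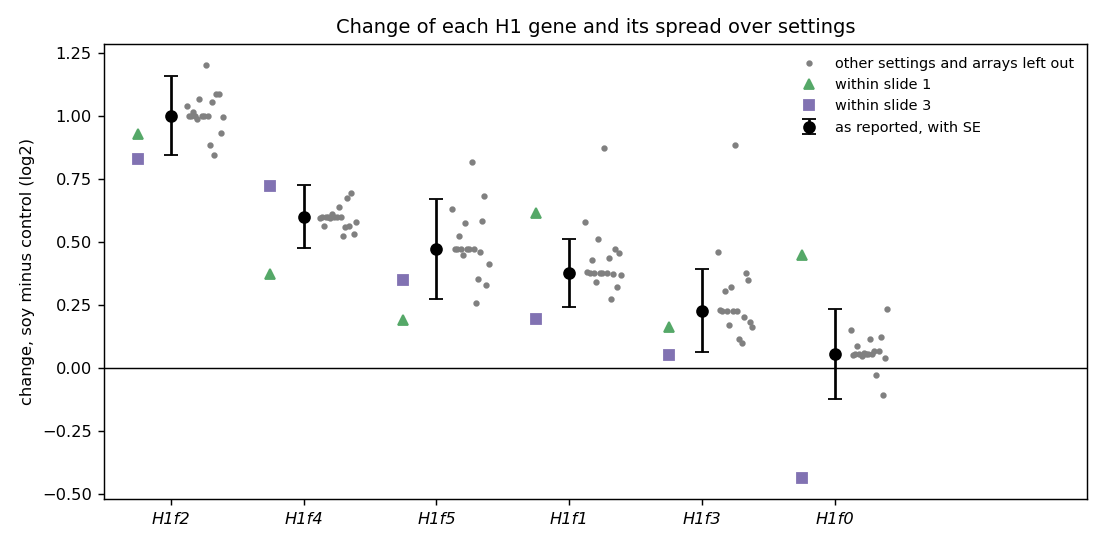
Change of each H1 gene (soy minus control, log2) as reported, with its SE (black), within the slides that hold both diets (triangles and squares) and under the other settings or with 1 array left out (grey points). H1f2 and H1f4 are above 0 in every setting drawn, and H1f0 falls on both sides of 0.

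The H1f2 difference lay between 0.83 and 1.20 in 20 alternatives, and with 1 array left out it ranged from 0.84 without control 2 to 1.09 without control 3 or soy 1. H1f4 lay between 0.37 and 0.72. H1f4 and H1f1 each passed under 1 alternative, the Agilent processed signal (limma adjusted p = 0.0212 and 0.0437). Under that signal the median change over all probes was 0.13, beside -0.01 as reported, and 13138 probes passed, 11924 of them higher in soy. H1f5, H1f1 and H1f3 kept a change above 0 in every alternative that gave a value, down to 0.19, 0.20 and 0.05.

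Over the 6 arrays the levels of H1f2 and H1f4 had a Pearson correlation of 0.85, those of H1f4 and H1f5 0.81 and those of H1f3 and H1f5 0.91. H1f0 had a correlation of 0.04 with H1f2 and -0.04 with H1f4, and of 0.41 with H1f1. These values over 6 arrays include the difference between the diets and are descriptions. The genes most like H1f2 over the 6 arrays, among 13497 genes well above background on all of them, were Mlec (r = 0.996), which encodes a carbohydrate-binding protein of the endoplasmic reticulum, Agbl3 (0.993), a carboxypeptidase, Cdca3 (0.993), a trigger of mitotic entry, Zfhx2 (0.992), a zinc finger homeobox factor, and Keg1 (0.992). Their changes lay between 0.35 in Agbl3 and 1.05 in Keg1, a direction that the choice by likeness to H1f2 brings with it. In limma none of the 5 passed, where 0.532% of all genes had a probe that passed.

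H1f8, the oocyte variant, changed by 0.17 (SE 0.13) and H1f6, the testis variant, by 0.05 (SE 0.11), and neither passed in limma or lay apart between the diets. With 1 array left out H1f8 ranged from 0.07 without control 1 to 0.24 without soy 3 and H1f6 from -0.02 without soy 1 to 0.10 without control 2, and within slide 3 both were under 0 (-0.08 and -0.01). H1f7, a variant of spermatids, and H1f10 (older name H1fx) were well above background on none of the 6 arrays and therefore get no fold. Of the 5 further H1 genes listed, 4 were on the array.

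The genes on either side of H1f2 were followed because they share its histone cluster. Taking 5 genes on each side in the order of the RefSeq table, 7 had a probe. None of them passed in limma, where 0.532% of all genes had a probe that passed. H2ac4, an H2A gene, changed by 0.53 (SE 0.20, adjusted p = 0.366 in limma) and H2bc4, an H2B gene, by 0.43 (SE 0.20, adjusted p = 0.472). Within slide 1 they were lower, at 0.22 and 0.03. Hfe, an iron regulator that is no histone gene, changed by 0.36 (SE 0.10, adjusted p = 0.202) without overlap between the groups. The H2B gene H2bc3 changed by 0.37 and 0.30 on its 2 probes, with overlap, and the first was 0.21 without control 2. The H3 gene H3c3 changed by 0.16 (0.10 without control 2 to 0.26 without control 3), and H4c3 by 0.26 without overlap. No probe was matched to Gm11338, H2ac5-ps or H3c2. All 7 had a change above 0, as had 48.8% of all genes. The smallest was the 0.05 of H1f6, which was -0.02 without soy 1 and -0.01 within slide 3.

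Core histone genes of the replication-dependent class, which form the nucleosome that H1 binds, were measured with 42 of 62 listed genes. None passed in limma, and 30 had a change above 0 and 12 below, beside 48.8% of all genes above 0. Their median was 0.13 (0.05 within slide 1 and 0.12 within slide 3). At an unadjusted p under 0.05, 8 were higher and 1 lower, against 5.34% and 6.14% of all probes, and 6 were apart with soy higher and 2 with soy lower, against 7.75% and 10.3%. H2ac23, an H2A gene, was 12.04, 11.75 and 11.78 in the control livers against 12.25, 12.71 and 12.96 in the soy livers, without overlap (change 0.79, SE 0.19, limma adjusted p = 0.159, 0.36 within slide 1 and 1.18 within slide 3). H4c17 changed by 0.86 (SE 0.26, adjusted p = 0.267) and H4c9 by 0.64 (SE 0.24, adjusted p = 0.373), and for both the groups overlapped. Within slide 1 H4c17 was 0.52 and within slide 3 H4c9 was 0.38. Several core histone genes are close copies of each other, and how far the probe of 1 copy took up RNA of another was not tested.

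Replacement core histones, which are made outside S phase, had a median change of 0.04 over 9 of 9 genes (-0.02 to 0.10 with 1 array left out). None passed in limma, and 1 was higher at an unadjusted p under 0.05, against 5.34% of all probes. H2az1, the H2A.Z gene, had the largest, 0.31 (SE 0.10, adjusted p = 0.284). Cenpa, the centromeric H3, changed by 0.16 (0.04 without control 1 and -0.10 within slide 3) and H2aj by 0.12 (0.03 without soy 3).

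Among the 15 genes of histone transcription and histone mRNA 3′ end formation, 8 had a change above 0 and 7 below, beside 48.8% of all genes above 0. Their median was 0.02 (-0.07 to 0.05 with 1 array left out). None passed in limma, and at an unadjusted p under 0.05 there were 2 higher and 3 lower, against 5.34% and 6.14% of all probes. Lsm10, a subunit of the U7 snRNP that cleaves histone pre-mRNA, changed by 0.49 (SE 0.13, adjusted p = 0.207) with all soy arrays above the controls, 0.27 within slide 1 and 0.74 within slide 3. Slbp, the protein that binds the histone stem-loop, changed by -0.46 (SE 0.13, adjusted p = 0.238) with all soy arrays below, and its dimmer probe by -0.15. The brighter probe changed by -0.71 within slide 1 and by -0.08 within slide 3. Pou2f1, the octamer factor of H2B promoters, changed by 0.40 on 1 probe and by -0.16 on the probe of another transcript, so its probes disagreed. Npat, the coactivator of histone genes, changed by 0.04 (-0.02 to 0.08 with 1 array left out).

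Of the 16 proteins listed as binding or modifying H1 none passed in limma, with 2 higher and 1 lower at an unadjusted p under 0.05, against 5.34% and 6.14% of all probes. The median was 0.05 (9 above 0, 7 below, beside 48.8% of all genes above 0) and -0.08 within slide 1. When single arrays were dropped it ranged from -0.0026 without soy 3 to 0.11 without control 1. Nap1l1, a chaperone of histones, changed by 0.46 on its brightest probe and by 0.67 (SE 0.10, adjusted p = 0.0531) on the other, both without overlap. Parp1, an enzyme that modifies H1, changed by 0.36 (SE 0.10, adjusted p = 0.202). Hmgn2, which competes with H1 for nucleosomes, changed by -0.60, -0.45 and -0.26 on its 3 probes, with the groups overlapping on each, and the first was -0.19 within slide 3.

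**Figure D3:**
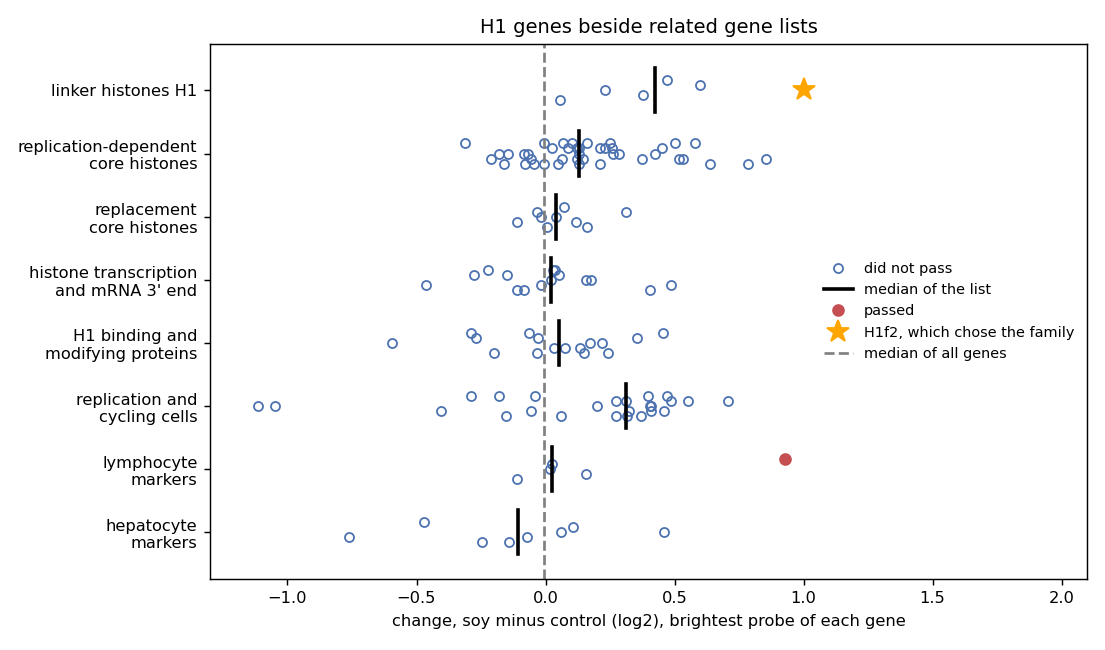
Change (soy minus control, log2) of each gene of 8 lists by its brightest probe, with the median of each list (bar) and the median of all genes (dashed line). The bar of the H1 list, at 0.42, includes H1f2, which chose the family, and the median of the other 5 H1 genes is 0.38. The star is H1f2 at 1.00, the other 5 H1 genes lie between 0.06 and 0.60, and among the genes drawn besides H1f2 the one that passed is the lymphocyte marker Ms4a1.

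DNA replication and cycling cell markers were examined because the clustered H1 genes are made in S phase. None of 25 passed in limma. A change above 0 was seen for 17 and below 0 for 8, beside 48.8% of all genes above 0, and the median was 0.31. At an unadjusted p under 0.05 there were 7 higher and 3 lower, against 5.34% and 6.14% of all probes. The median was 0.0047 within slide 1 and 0.34 within slide 3, and 0.19 without soy 3. Ccne1, cyclin E1 of the entry into S phase, was 11.11, 10.45 and 10.14 in the control livers against 9.84, 9.06 and 9.46 in the soy livers, lower on every soy array (change -1.11, SE 0.28, adjusted p = 0.177, -0.69 within slide 3). Rrm2, a subunit of ribonucleotide reductase, changed by -1.05 (SE 0.31, adjusted p = 0.252) with overlap, by -1.44 within slide 1 and by 0.0090 within slide 3. Chaf1a, a subunit of the histone chaperone that works at replication forks, changed by 0.55 (SE 0.14, adjusted p = 0.184), Mcm2 of the replicative helicase by 0.49 and the proliferation marker Mki67 by 0.40, all without overlap. Mki67 was 0.20 within slide 1 and 0.74 within slide 3. The summed signal of the list, on the linear scale, was 20111, 19369 and 17977 in the control livers against 17354, 18357 and 21268 in the soy livers, so it overlapped between the diets, with Pcna the brightest. The part of cycling cells in the H1 values was not tested.

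Besides H1f2, which was not tested, 1 gene passed among the list genes reported here, a lymphocyte marker, where 0.532% of all genes had a probe that passed. Ms4a1, the CD20 antigen of B cells, was 6.84 ± 0.16 on the control arrays (SD, n = 3), of which 2 were well above background, and 7.60, 7.91 and 7.79 in the soy livers, all above the controls, a rise of 0.93 (SE 0.13, limma adjusted p = 0.0394). It is dim, and it passed in 9 of 18 alternatives with a test and in none of the 6 fits with 1 array left out.

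The other 4 lymphocyte markers reported here did not pass. Cd79a, a chain of the B cell receptor, was well above background on 2 control arrays and no soy array, Cd3g on 1 control array and no soy array, and Cd8a on no array, so no change is given for them. The brightest of the list, Cd3e of T cells, changed by -0.11, and by -0.02 without control 1 and -0.21 without soy 2. The summed linear signal of the 5 markers was 4617, 3832 and 4014 in the control livers against 3889, 4478 and 3633 in the soy livers, so it overlapped. The part of lymphocytes in the H1 values was not tested.

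Hepatocyte markers, by which the tissue label was checked, were well above background on all arrays for all 8 genes, with Alb the brightest. None passed in limma, 1 was higher and 2 were lower at an unadjusted p under 0.05, against 5.34% and 6.14% of all probes, and the median change was -0.10. Tat, an enzyme of tyrosine breakdown, changed by -0.76 (-0.17 within slide 3) and Cps1 of the urea cycle by -0.47 (-0.28 within slide 1), whereas Apob, the structural protein of secreted lipoproteins, changed by 0.46 on its brightest probe (0.27 within either slide) and by 0.28 on the other. With 1 array left out the median ranged from -0.16 without soy 1 to -0.02 without soy 3. Their summed linear signal was 1324210, 1333050 and 1294690 in the control livers against 1303690, 1235120 and 1182800 in the soy livers, and the ranges overlapped.

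The remaining marker lists, of 6 genes each, held no gene that passed in limma. The median change was 0.24 for Kupffer cells, the macrophages of the liver (5 above 0, 1 below), and 0.07 for endothelial cells (3 above 0, 3 below). It was -0.10 for stellate cells (1 above 0, 5 below), -0.01 for cholangiocytes (3 above 0, 3 below) and 0.34 for red cells and neutrophils (6 above 0). Of all genes, 48.8% had a change above 0. The Kupffer median was 0.02 without control 1, 0.09 without soy 3, 0.46 without control 3 and 0.37 without soy 1. That of red cells and neutrophils was 0.18 without control 2 and 0.06 within slide 3. The stellate median was -0.04 without control 1 and -0.17 without soy 1, and the endothelial and cholangiocyte medians took both signs over the arrays left out (-0.0048 to 0.12 and -0.06 to 0.05). The cholangiocyte median was -0.14 over the 5 genes well above background and 0.11 with the 75th percentile shift. At an unadjusted p under 0.05 the 5 lists together had 1 gene, against 6.14% of all probes in its direction. This was the stellate cell collagen Col1a1, at 9.13 ± 0.71 in control and 8.13 ± 0.33 in soy livers (SD, n = 3, limma adjusted p = 0.318). Its change was -0.60 without control 1 and -0.46 within slide 3. That probe has 10 spots, some of them marked as outliers on 5 arrays. The other Col1a1 probe changed by -0.86 (limma adjusted p = 0.394), with overlap. Among Kupffer markers the scavenger receptor Marco changed by -0.73 (-0.20 without control 3 and -1.56 within slide 3), Cd5l by 0.45 (0.20 without control 1) and Vsig4 by 0.44 (0.27 without control 1 and 0.28 without soy 3). Among endothelial markers the hyaluronan receptor Lyve1 changed by -0.67 (-0.04 without control 1 and 0.03 within slide 3), the VEGF receptor Kdr by 0.30 and the cadherin Cdh5 by 0.22 (0.09 without soy 3 and -0.02 within slide 1). In the stellate list Reln changed by -0.23 and -0.16 on its 2 probes and the growth factor Hgf by -0.12 and 0.06. Without control 1 the first probes of Reln and Hgf were at -0.08 and -0.011, and within slide 3 that of Reln was at 0.21. The neutrophil genes S100a9 and S100a8 changed by 0.62 and 0.58 (0.33 and 0.29 without control 1), and Alas2 of heme synthesis in red cells by 0.42, which was -0.42 without control 2 and -0.64 within slide 3. Of the cholangiocyte markers, Cftr was well above background on no soy array by its brighter probe and on no array by the other. The groups overlapped on the brighter probe. The change on that probe was -0.23, which was -0.09 without soy 1 and -0.33 without soy 2, so no least fold is given. Sox9 changed by -0.16 and 0.35 on its 2 probes, the first ranging from -0.26 without control 3 to -0.05 without soy 2 (0.13 within slide 3), and Spp1 by 0.15, from 0.02 without soy 3 to 0.35 without control 1. The brightest genes were Cd5l in Kupffer cells, Clec4g in endothelial cells, Dcn in stellate cells, Spp1 in cholangiocytes and Hba-a1 in red cells, and Ngp of neutrophils and Epcam of cholangiocytes were well above background on no array. The summed linear signal of the endothelial markers was 42211, 42513 and 41929 in the control livers against 43626, 49694 and 45655 in the soy livers, without overlap. It overlapped for Kupffer cells, with 23709, 37740 and 45554 in the control livers against 32744, 39571 and 50515 in the soy livers, and for red cells and neutrophils, with 208153, 152322 and 228296 in the control livers against 167285, 364082 and 198905 in the soy livers. The stellate markers summed to 40294, 35719 and 39186 in the control livers against 34712, 34652 and 37532 in the soy livers, and the cholangiocyte markers to 3771, 2701 and 2705 and to 3471, 2649 and 3680, both with overlap. The part of these cells in the H1 values was not tested.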

How the data were processed

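Each of the 6 arrays carried RNA of 1 liver. The values deposited per array are Feature Extraction 11.5.1.1 output. Its median intensity, given for the spot and for the background around it, was left as scanned by the authors, and its processed intensity had background and spatial trend removed. The log2 values deposited by the authors in a separate table stayed within 0.0705 of those computed here (their background correction is not given in the sources used here). The methods name raw median signals, limma and Benjamini-Hochberg adjustment.

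Here the median intensities were background corrected by normexp (offset 50), quantile normalized and log2 transformed. Control spots and outlier spots were not used, and the remaining spots of a probe were averaged. Outlier spots numbered 156, 178 and 108 on control arrays 1, 2 and 3. On soy arrays 1, 2 and 3 they numbered 166, 182 and 91. After averaging, 80 values of a probe on an array were missing for this reason. The diet difference was fitted for all 56605 probes by lmFit and eBayes of limma 3.58.1 under R 4.3.3. The 3 arrays per group are separate mice. Tables and plots were made with Python 3.11.15, pandas 2.3.3 and matplotlib 3.10.9. The fit was tested on simulated data. RefSeq accessions gave a symbol to 32994 probes, by the gene table of GRCm38.p6. The array design uses another build, and positions are therefore given only for the RefSeq upstream windows.

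The family, the 14 gene lists (181 genes, of which 160 were on the array) and the tests were chosen with earlier results of these data known. Genes were named by rule: all H1 members and relatives, from each list the genes that passed or up to 3 with the largest change where all arrays of 1 diet were well above background, the 5 genes on each side of H1f2 and the 5 most correlated with it. Mcm2, Mki67, Npat, the other lymphocyte markers and the brightest and undetected markers of each list were named beside these after their values were seen. 1 item that this rule names is not reported here. The brightest probe stands for a gene unless stated. Alternatives were other background corrections and normalizations, the processed signal, a filter on dim probes, outlier spots kept in, a trended and robust eBayes, a block for the replicate number or for the slide, values within slides, the deposited log2 values, no limit on the fold, and arrays left out singly.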

Additional observations from a re-analysis of the deposited data

How the results depend on the processing

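The number of probes that passed was 198 (118 higher in soy, 80 lower) and was 299 with a 75th percentile shift, 77 with a normexp offset of 16, 497 with only probes well above background, 25 with the slide as a block, and 13138 (11924 higher, 1214 lower) with the processed signal. The causes were not tested, except that the filter on dim probes tests fewer probes. The 75th percentile shift and the processed signal both moved the median change over all probes to 0.13. With 1 array left out the count ranged from 26 to 208, with 103, 78 and 208 when control 1, 2 or 3 was dropped and 48, 26 and 29 when soy 1, 2 or 3 was. The replicate number as a block gave 78 probes, and H1f0, H1f1, H1f3, H1f4 and H1f5 did not pass with it. Same-numbered arrays had correlations of 0.12, -0.06 and 0.11 in their deviations from the group means, and differently numbered arrays from -0.20 to 0.10. Arrays numbered 1 shared slide 1 and arrays numbered 3 shared slide 3, so number and slide are mixed. These correlations do not decide on pairing, and the numbers were not taken as pairs. H1f0 changed sign: it ranged from -0.11 to 0.23 with 1 array left out and was -0.44 within slide 3. Leaving out spots with an outlying background was chosen after seeing the data and gave 174 probes. H1f3 was not among the probes well above background and has no value under that filter. Ms4a1 lost its call with the offset of 16 (adjusted p = 0.0635), the replicate block (0.0603), the slide as a block (0.184) and each array left out (0.0750 to 0.140), always with a change above 0. H1f3 was well above background on 2 of 3 arrays in each group, the other 5 H1 genes on all 6 arrays, and 3 arrays per group limit the precision of every value.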

Other observations

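The summed linear signal of the 6 H1 probes was 2329, 2526 and 2525 on control arrays 1, 2 and 3 and 3364, 4042 and 3732 on soy arrays 1, 2 and 3, and it includes H1f2. The summed signal of the 42 replication-dependent core histone genes was 377335, 371449 and 419668 in the control livers against 380167, 463228 and 486821 in the soy livers, which overlapped.

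Nap1l1 had 2 probes that both lay apart between the diets. Its dimmer probe was 11.38, 11.47 and 11.55 in the control livers against 12.21, 12.15 and 12.03 in the soy livers, and it did not pass in limma (adjusted p = 0.0531).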
